A study of Homo sapiens with 32 samples.

Results

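HEK293T cells in which YTHDF2 had been lowered by siRNA were compared after 6 h with the METTL3 inhibitor STM2457 or with its solvent DMSO. The 6 libraries, 3 with STM2457 and 3 with DMSO, were taken by their titles out of 32 in the series, and all genes that passed a filter on low counts were described. HEK293T is a human embryonic kidney line that expresses the SV40 large T antigen. Both groups had received the same siRNA against YTHDF2 at 20 nM 24 h after seeding. Medium with 20 µM STM2457 in 0.2% DMSO, or with 0.2% DMSO alone, was given 42 h after transfection, and RNA was taken at 48 h. A further 6 libraries of the same experiment, which the labels call WT, had STM2457 or DMSO for 6 h without YTHDF2 siRNA. The labels do not say whether those cells were given the control siRNA that the protocol mentions. Libraries treated for 9 h, and libraries of an experiment with the translation inhibitor emetine, serve only as further comparisons. Nothing says that replicates came from separate cultures, so the p-values speak of the spread among these libraries, which may be technical.

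N6-methyladenosine (m6A) is written into mRNA in the nucleus by a complex in which METTL3 is the catalytic subunit, and METTL14, WTAP, VIRMA, ZC3H13, CBLL1, RBM15 and RBM15B stabilise it or place it on RNA. Exon junction complexes keep the writer away from sequence near splice junctions, so that m6A lies mainly in long exons and around stop codons. In the cytoplasm YTHDF2 binds m6A and recruits the CCR4-NOT deadenylase, and m6A in coding sequence has also been tied to decay that depends on translation. Blocking METTL3 in cells with little YTHDF2 addresses how the transcriptome responds to m6A depletion when this reader is already low.

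The 6 libraries held 37694945 to 41968857 gene counts with DMSO and 38386469 to 39418856 with STM2457. ERCC spike-in RNAs came to 0.295 to 0.351% of the gene counts with DMSO and 0.328 to 0.474% with STM2457, and cytosolic ribosomal protein genes to 6.22 to 6.43% and 6.72 to 7.2%. Levels below are CPM, the read count of a gene scaled to the normalised size of its library. All 8 HEK293T markers had a mean of at least 1 CPM in these libraries, as did 3 of 8 fibroblast markers, 1 of 8 keratin markers (KRT10), 1 of 8 blood markers and 0 of 8 hepatocyte markers. The summed level of the HEK293T markers was 1074 to 1142 CPM with DMSO and 1125 to 1196 CPM with STM2457. It was 22.2 to 26.7 CPM with DMSO and 20.5 to 22.2 CPM with STM2457 for fibroblast markers and 21 to 22.3 CPM with DMSO and 25.3 to 27.1 CPM with STM2457 for keratin markers. Blood markers summed to 2.6 to 3.08 CPM with DMSO and 2.75 to 3.13 CPM with STM2457, and hepatocyte markers to 0.239 to 0.392 CPM with DMSO and 0.33 to 0.36 CPM with STM2457. FAP, KRT1, PTPRC, HBB, TTR and SERPINA1 had no count in any of the 6. What part the shifts in spike-in share and marker levels have in the results was not tested. In bulk samples such as these, fewer cells of a type and less RNA per cell cannot be told apart.

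YTHDF2 mRNA was low in the siRNA cells and still rose with STM2457. It was at 44.5, 43.1 and 42.2 CPM with DMSO and at 76.2, 74 and 80.5 CPM with STM2457. The groups did not overlap, and the rise was 1.78-fold, a log2 change of 0.83 (standard error, SE, 0.06, edgeR adjusted p = 1.7e-09). Without YTHDF2 siRNA it went from 179, 182 and 174 to 582, 617 and 656 CPM, a log2 change of 1.79, so all 6 siRNA libraries lay below all of those. The 2 changes differed by -0.96 (SE 0.08, edgeR adjusted p = 6.57e-07). YTHDF3, a related m6A reader, was also low in the siRNA cells, at 51.9, 49.6 and 50.2 CPM against 112, 112 and 109 CPM without siRNA, both with DMSO (log2 difference -1.14, edgeR adjusted p = 4.87e-11). METTL3, the enzyme that STM2457 inhibits, was at 58, 59.3 and 57.2 CPM with DMSO and at 61.4, 62.9 and 62.6 CPM with STM2457. These groups did not overlap either, but the log2 change of 0.10 (SE 0.04) did not pass the test (edgeR adjusted p = 0.109). METTL3 shares exonic bases with TOX4 on the other strand.

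Of 16662 genes tested, 2577 (15.5%) rose and 2569 (15.4%) fell with STM2457 in the YTHDF2 siRNA cells, at an adjusted p of 0.05 in edgeR's quasi-likelihood test. With scaling to cytosolic ribosomal protein genes 703 rose and 4241 fell, and with scaling to the spike-ins 138 rose and 2381 fell. These scalings moved the median log2 change of all genes by -0.19 and -0.31. Changes below are relative to the usual TMM normalisation, in which that median is 0.00. Changes of at least 2-fold were more often falls, with 132 genes higher (0.792%) and 505 lower (3.03%). Of these falls 144 were protein coding genes, 141 antisense RNAs and 100 long intergenic non-coding RNAs (lincRNAs), and of the rises 81, 15 and 14. The median log2 CPM of these 3 types was 4.92, -0.60 and -0.65. The 3 STM2457 libraries all lay above the 3 DMSO libraries for 4002 genes (24.0%) and all below them for 3990 (23.9%). The lower quartile of all log2 changes was -0.19 and the upper quartile 0.16.

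**Figure D1:**
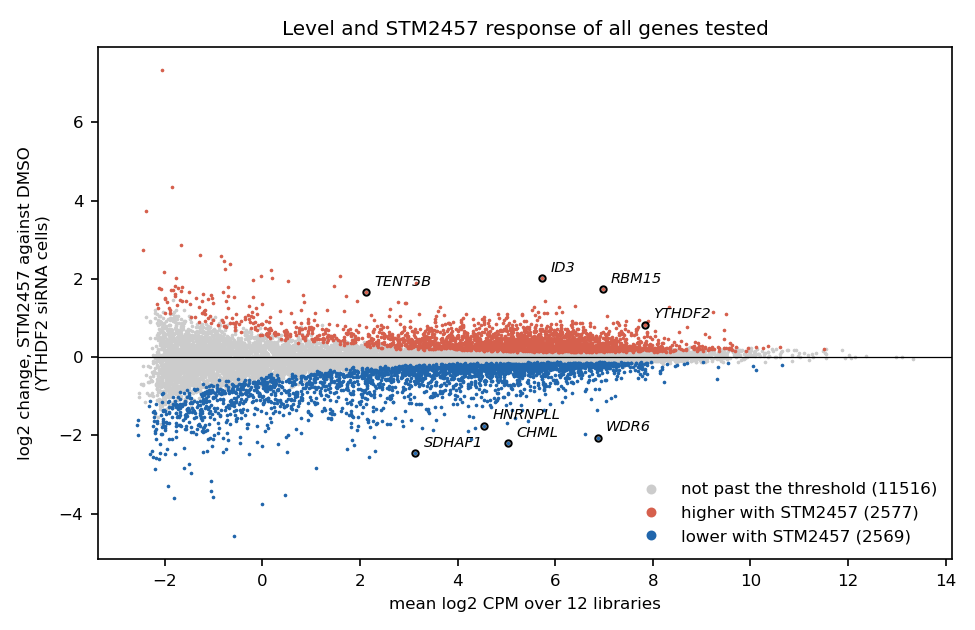
Mean log2 CPM (x axis) and log2 change with STM2457 in YTHDF2 siRNA cells (y axis) for the 16662 genes tested. Coloured points mark the 2577 genes that rose and the 2569 that fell at an adjusted p of 0.05, and of the genes named on the plot ID3 and RBM15 lie above 0 and SDHAF1 below it.

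ID3 rose most among well expressed protein coding genes (mean log2 CPM of at least 2, no overlap between the groups). ID3 (chromosome 1, 23557918 to 23559794, minus strand, GRCh38) encodes an inhibitor of basic helix-loop-helix transcription factors and is a target of BMP signalling. It was at 15.8, 14.7 and 18.2 CPM with DMSO and at 58, 72.3 and 66.8 CPM with STM2457. All treated libraries were above all controls, with a log2 change of 2.02 (SE 0.09, edgeR adjusted p = 1.2e-11). RBM15 (chromosome 1, 110338506 to 110346681, plus strand), the RNA-binding adaptor of the m6A writer, came second and was at 65.4, 63.7 and 64.9 CPM with DMSO and at 208, 224 and 213 CPM with STM2457. Its log2 change was 1.73 (SE 0.05, edgeR adjusted p = 6.76e-14), and the groups lay far apart. TENT5B (chromosome 1, 27005020 to 27012836, minus strand), a noncanonical poly(A) polymerase, was at 2.82, 2.63 and 3.4 CPM with DMSO and at 9.09, 9.67 and 9.12 CPM with STM2457. Its log2 change was 1.66 (SE 0.12, edgeR adjusted p = 3.82e-09). RBM15 overlaps an antisense gene, RBM15-AS1.

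TRIM13, which encodes an ER-bound ubiquitin ligase, rose from 24.8, 24.5 and 25.2 to 65.9, 68.7 and 67.8 CPM (log2 change 1.44), but shares exons with KCNRG on the same strand, so its reads may be split. MAD2L1BP, which helps to silence the spindle checkpoint, rose from 53.9, 51.4 and 55.6 to 123, 139 and 139 CPM (1.31). SLC25A28, a mitochondrial iron carrier, rose from 31, 29.7 and 31.2 to 73.4, 75.6 and 73.1 CPM (1.27). In MAD2L1BP and SLC25A28 every treated library was more than 2 times the mean of the controls. NXT1, a cofactor of mRNA export, rose from 38.3, 35.9 and 40.03 to 89.95, 92.2 and 93.3 CPM (1.27). The other large rises were GNB3, a G protein beta subunit (1.41), ADPRM, a phosphodiesterase (1.37), DEPP1, a FOXO target gene (1.37), KICS2, a subunit of the KICSTOR complex that restrains mTORC1 (1.29), and LRATD2 (1.27). GNB3, DEPP1 and LRATD2 overlap exons of CDCA3, RASSF4 and PCAT1 on the other strand. All 12 genes also rose without YTHDF2 siRNA, by 1.08 to 2.22 on the log2 scale.

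**Figure D2:**
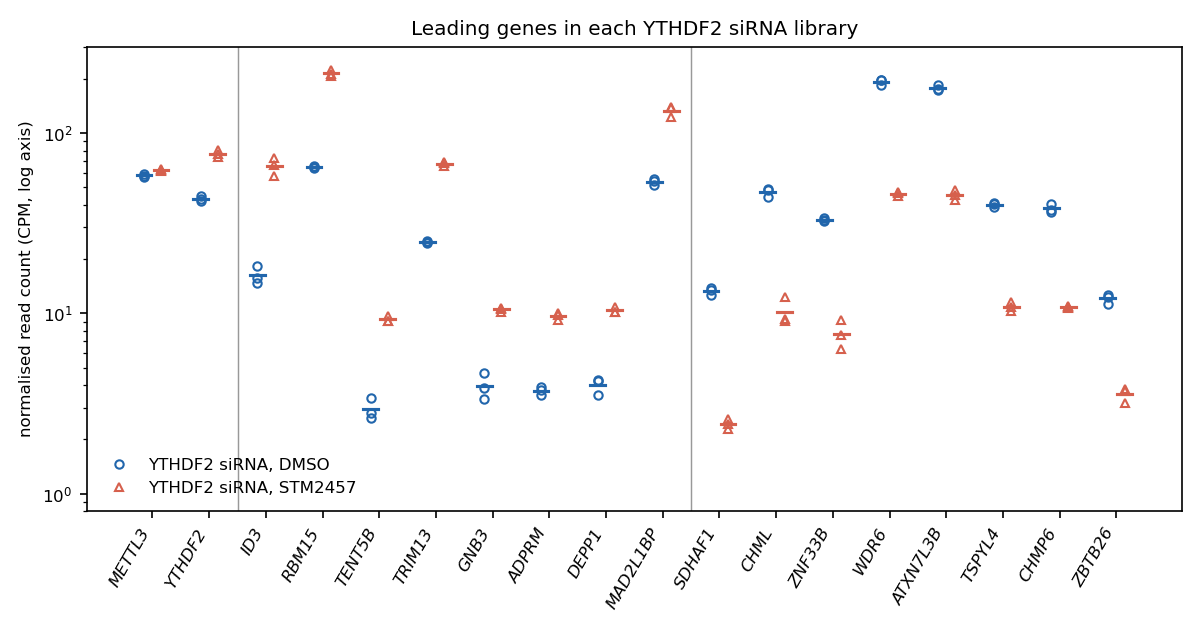
Normalised read count (CPM, log axis) in each of the 6 YTHDF2 siRNA libraries for METTL3, YTHDF2 and the leading rises and falls among well expressed protein coding genes. Points are single libraries, 3 with DMSO and 3 with STM2457. The rises and falls shown were picked among genes whose groups do not overlap, and the groups of METTL3 and YTHDF2 do not overlap either.

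Coding sequence of 3 of the risers is shown because it holds several m6A contexts far from splice junctions. Each window is 120 bases of the longest coding transcript, in the sense direction 5′ to 3′, at least 100 bases from every junction and placed where the motif GGAC followed by A, C or T (sense strand only, no overlap with itself) was densest. Capitals mark the motif, and the letters are those of GENCODE 29 on GRCh38.
DEPP1: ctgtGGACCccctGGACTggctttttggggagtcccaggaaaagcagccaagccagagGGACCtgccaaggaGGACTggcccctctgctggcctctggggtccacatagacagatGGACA
RBM15: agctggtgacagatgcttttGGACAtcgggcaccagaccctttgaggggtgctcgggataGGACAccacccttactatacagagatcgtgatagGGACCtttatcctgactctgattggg
TENT5B: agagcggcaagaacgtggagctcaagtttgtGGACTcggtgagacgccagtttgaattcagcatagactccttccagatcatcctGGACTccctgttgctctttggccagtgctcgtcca
The DEPP1 window (chr10:44977610-44977729, minus strand, exon 2) holds 5 motifs, the RBM15 window (chr1:110341045-110341164, plus strand, exon 1) 3 and the TENT5B window (chr1:27006519-27006638, minus strand, exon 2) 2. These windows and genes were picked after their values were seen, and each window is the densest of its gene. Of 205308 consecutive windows of the same length over the whole coding sequence of all genes compared, 37.6% hold at least 1 motif, 8.7% at least 2 and 1.47% at least 3. A motif stands somewhere in the coding sequence of 96.5% of the genes, and m6A itself was not measured in these libraries.

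SDHAF1 fell most. SDHAF1 (chromosome 19, 35995199 to 35996315, plus strand), an assembly factor of respiratory complex II, was at 12.7, 13.4 and 13.9 CPM with DMSO and at 2.43, 2.29 and 2.61 CPM with STM2457. The log2 change was -2.45 (SE 0.09, edgeR adjusted p = 1.71e-12). CHML (chromosome 1, 241628853 to 241640254, minus strand), a Rab escort protein, was at 48.7, 48.6 and 44.3 CPM with DMSO and at 12.3, 9.3 and 9.07 CPM with STM2457. Its log2 change was -2.21 (SE 0.11, edgeR adjusted p = 3.43e-11), and it shares exonic bases with OPN3 on the same strand. ZNF33B, a zinc finger gene, fell from 33.9, 32.7 and 32.4 to 9.17, 6.37 and 7.55 CPM (-2.10). WDR6, a partner of the tRNA methyltransferase FTSJ1, fell from 196, 185 and 196 to 46.8, 44.5 and 47.2 CPM (-2.06), and overlaps DALRD3 on the other strand. ATXN7L3B, a relative of an adaptor of the SAGA deubiquitinase, fell from 184, 172 and 175 to 48.5, 42.7 and 45.1 CPM (-1.96). In each of these genes the highest treated library was far below the lowest control.

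The other large falls were TSPYL4 (-1.88), CHMP6, a subunit of the ESCRT-III membrane scission machinery (-1.82), ZBTB26 (-1.76), HNRNPLL, a splicing regulator (-1.75), SMIM10 (-1.72), TRIM69 (-1.69) and ENSG00000285053 (-1.71), whose exons overlap those of TBCE and GGPS1 on the same strand. HNRNPLL fell from 24.6, 25.6 and 25.7 to 7.43, 7.59 and 7.5 CPM, and CHMP6 from 37.7, 36.4 and 40.4 to 10.9, 10.7 and 10.9 CPM. TSPYL4 fell from 40.8, 40.2 and 39.1 to 11.5, 10.3 and 10.9 CPM. HNRNPLL fell less than without YTHDF2 siRNA, where its log2 change was -2.39 (difference 0.64, edgeR adjusted p = 9.15e-05), while CHMP6 fell more (difference -0.64, edgeR adjusted p = 0.000105), as did TSPYL4 (difference -0.57, edgeR adjusted p = 0.000756). All 12 genes also fell without YTHDF2 siRNA at 6 h. At 9 h the value of CHML was 0.32, opposite in sign to its fall at 6 h.

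Antisense RNAs and lincRNAs fell more often than they rose. Of 945 antisense RNAs tested 266 fell and 47 rose, with a median log2 change of -0.28. Of 684 lincRNAs 171 fell and 43 rose (median -0.21), and of 13456 protein coding genes 1906 fell and 2404 rose (median 0.01). Most antisense RNAs (845) and lincRNAs (608) had a mean log2 CPM under 2, with medians of -0.28 and -0.21. Of 2661 coding genes under that level 279 fell and 140 rose (median -0.11). Above it 53 of 100 antisense RNAs fell and 14 rose, and 34 of 76 lincRNAs fell and 12 rose. With ribosomal protein and spike-in scaling the antisense median was -0.47 and -0.60, the lincRNA median -0.40 and -0.53 and the coding median -0.18 and -0.30. Of 882 pseudogenes 102 fell and 28 rose, with medians of 0.02, -0.17 and -0.30 with TMM, ribosomal protein and spike-in scaling. The strand setting of the counting is not given in the sources used here. Among genes with no exonic base in common with another tested gene, a split chosen after seeing the data, 77 of 277 antisense RNAs fell and 15 rose (median -0.28), as did 137 and 36 of 565 lincRNAs (median -0.21). Without YTHDF2 siRNA the antisense and lincRNA medians were -0.28 and -0.17 at 6 h, and 0.02 and 0.03 at 9 h.

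OGFRP1, a pseudogene transcript, fell most among non-coding genes, from 9.64, 8.95 and 9.67 to 1.95, 1.74 and 1.68 CPM (log2 change -2.39, SE 0.11, edgeR adjusted p = 1.21e-11). HCP5, a long non-coding RNA of the MHC region that overlaps MICA, fell from 8.19, 8.31 and 9.44 to 1.87, 2.05 and 2.42 CPM (-2.03). BAIAP2-DT (-1.86) and HCG11 (-1.81) followed. SMG1P7, a pseudogene of the decay kinase SMG1, rose most, from 4, 4.58 and 3.9 to 15.3, 15.6 and 15.7 CPM (1.9), but it has near-identical copies and its reads may be split. SNHG3, a snoRNA host gene that overlaps RCC1 on the same strand, rose from 43.7, 45.9 and 41 to 79.8, 78.7 and 82 CPM (0.88). The long non-coding RNAs PRANCR (0.94) and EMSLR (0.90) also rose, PRANCR overlapping CNOT2 on the other strand. These 8 genes were picked by the limits used for coding genes, so the lack of overlap between their groups was a condition of the choice.

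With the usual normalisation most genes of the writer complex and of the YTH readers rose. In the writer complex (8 tested) 7 rose and none fell, against 15.5% and 15.4% of all genes. The median log2 change was 0.45, and 0.26 and 0.14 with ribosomal protein and spike-in scaling. With these scalings the calls came to 6 up and none down and then to 1 up and none down. For each list below the 3 medians are given in this order, followed by the numbers called higher (up) and lower (down) with ribosomal protein and then with spike-in scaling. Beside RBM15, WTAP, which anchors the writer, rose from 166, 157 and 165 to 270, 282 and 279 CPM (0.77). RBM15B, the paralogue of RBM15, rose from 174, 165 and 166 to 243, 257 and 257 CPM (0.59), and METTL14, the partner of METTL3 in the catalytic core, from 50.1, 49 and 48.7 to 68.3, 68.2 and 66.7 CPM (0.46). None of these groups overlapped, and METTL3 was the only member that did not pass the test. WTAP and RBM15B overlap genes on the other strand. In the YTH readers (5 tested) 4 rose and none fell (median 0.59, 0.40 and 0.28, 4 up and none down, then 1 up and none down). YTHDF1 rose from 106, 102 and 107 to 154, 162 and 157 CPM (0.59), and the nuclear reader YTHDC1 from 134, 136 and 131 to 205, 209 and 206 CPM (0.63). YTHDF3 rose from 51.9, 49.6 and 50.2 to 65.3, 69.6 and 70.1 CPM (0.43), less than without YTHDF2 siRNA (difference -0.61, edgeR adjusted p = 0.000265), and RBM15B did so too (difference -0.65, edgeR adjusted p = 1.29e-05).

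Other RNA methylation genes went in both directions. Among enzymes that place other marks or m6A outside the main writer (10 tested) 2 rose and 3 fell (median 0.02, -0.17 and -0.28, none up and 4 down, then none up and 1 down). METTL1, which methylates tRNA, fell from 17.1, 15.2 and 16.2 to 5.25, 5.79 and 7.07 CPM (-1.42, SE 0.09, edgeR adjusted p = 1.63e-09), and overlaps EEF1AKMT3 on the other strand and CYP27B1 on the same strand. Its partner WDR4 fell by 0.21. METTL16, which methylates U6 snRNA, rose from 73.9, 75.3 and 70.3 to 95.5, 97.2 and 98 CPM (0.40). Among other readers and erasers (8 tested) 2 rose and 1 fell (median 0.07, -0.12 and -0.24, none up and 1 down, then none called), with the demethylase ALKBH5 at 0.29 (-0.0194 with spike-in scaling) and the demethylase FTO at -0.18. In methionine and S-adenosylmethionine metabolism (17 tested) 4 rose and 2 fell (median 0.02, -0.17 and -0.28, 1 up and 5 down, then none up and 1 down), with AMD1, of polyamine synthesis, at 0.48.

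The mRNA decay factors belong to several complexes. As for every list here, their counts are read against the 15.5% of all genes that rose and the 15.4% that fell. The share of rises was near that background in decapping and P bodies (15.8%) and in nonsense-mediated decay factors (16.7%). In the CCR4-NOT and PAN deadenylases (15 tested) 4 rose and 1 fell (median 0.04, -0.15 and -0.26, none up and 4 down, then none up and 1 down), with PAN2 at -0.32 and CNOT4 at 0.18 (-0.0051 and -0.126 with the other scalings). In the BTG and TOB adaptors, which bring the deadenylase to mRNA (5 tested), 4 rose and none fell (median 0.47, 0.28 and 0.17, 3 up and none down, then none called). BTG2 rose from 32.1, 30.7 and 33.5 to 46.8, 50.6 and 50.03 CPM (0.61) and BTG1 from 68.5, 66 and 65.7 to 107, 97.5 and 96.1 CPM (0.59). In decapping and P bodies (19 tested) 3 rose and none fell (median 0.07, -0.12 and -0.23, 1 up and 1 down, then none called), with DCP1B at 0.54 and LSM7 at 0.21 (-0.0996 with spike-in scaling). In RNase P and MRP, with the adaptor RIDA (HRSP12) that links YTHDF2 to this endonuclease (12 tested), 5 rose and none fell (median 0.09, -0.10 and -0.21, 3 up and 3 down, then 1 up and none down). RPP38 rose from 30.8, 30.4 and 30.8 to 69.3, 69.2 and 64.8 CPM (1.14, SE 0.06, edgeR adjusted p = 2.92e-11), with NMT2 on the other strand, and the subunits RPP25 (0.47), POP7 (0.42) and RPP14 (0.36) rose too.

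In nonsense-mediated decay factors (12 tested) 2 rose and none fell (median 0.04, -0.15 and -0.27, 1 up and 3 down, then 1 up and none down). SMG8, a regulator of the kinase SMG1, rose from 92.7, 88.1 and 92.9 to 190, 191 and 191 CPM (1.06, SE 0.06, edgeR adjusted p = 7.16e-11), with treated libraries that were nearly equal. UPF2 rose from 66.7, 66.2 and 60.8 to 84.7, 88.8 and 84.8 CPM (0.42), more than the 0.06 without YTHDF2 siRNA (difference 0.36, edgeR adjusted p = 0.0227). Among known substrates of translation-dependent decay, mostly snoRNA host genes (19 tested), 15 rose and none fell (median 0.25, 0.06 and -0.06, 2 up and 1 down, then 1 up and none down). After SNHG3 these were led by ZFAS1, from 18.5, 17.6 and 18 to 23, 22.8 and 24.1 CPM (0.37), ATF3 (0.48) and SNHG1 (0.28). In the exon junction complex (10 tested) 1 rose and none fell (median 0.05, -0.14 and -0.25, 1 up and 1 down, then none called). The member that rose was PYM1, which recycles the complex from translated mRNA, from 43.9, 40.5 and 42.7 to 59.4, 63.3 and 63.8 CPM (0.55).

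Among splicing regulators of the hnRNP class (21 tested) 1 rose and 6 fell (median -0.08, -0.27 and -0.38, 1 up and 11 down, then none up and 5 down). HNRNPH2 fell from 126, 118 and 122 to 67.4, 65.9 and 67.6 CPM (-0.86, SE 0.05, edgeR adjusted p = 3.1e-10), HNRNPL by 0.63, and HNRNPF, a close relative of HNRNPH2, rose by 0.59. Among SR factors (14 tested) 4 rose and 2 fell (median 0.09, -0.10 and -0.22, none up and 4 down, then none up and 2 down), with SRSF5 at -0.33 and SRSF4 at 0.27 (-0.0363 with spike-in scaling). Among the noncanonical poly(A) and uridyl polymerases (10 tested of 11 listed) 8 rose and none fell (median 0.28, 0.09 and -0.04, 2 up and none down, then 1 up and none down). TENT5C rose from 11.2, 11.2 and 11.4 to 17.5, 19.7 and 17.6 CPM (0.70), and the uridyltransferase TUT7 by 0.45.

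Many target genes of signalling pathways rose. Among immediate early genes (39 tested of 40 listed) 24 rose and 1 fell (median 0.34, 0.15 and 0.02, 9 up and 1 down, then 3 up and 1 down). MYC, a growth regulator, rose from 108, 107 and 111 to 209, 211 and 206 CPM (0.94, SE 0.05, edgeR adjusted p = 2.92e-11), RHOB, a small GTPase, from 439, 452 and 420 to 826, 707 and 697 CPM (0.77), and IER5L by 1.23. Among BMP and TGF-beta targets (18 tested of 20 listed) 12 rose and none fell (median 0.47, 0.28 and 0.15, 8 up and none down, then 6 up and none down). Next to ID3, the transcriptional repressor HEY1 rose from 214, 199 and 214 to 370, 391 and 390 CPM (0.88), and MSX2 (1.11) and ID2 (0.91) rose as well. Among feedback inhibitors of MAPK and EGFR signalling (16 tested of 18 listed) 8 rose and none fell (median 0.21, 0.02 and -0.10, 3 up and 1 down, then 1 up and none down). ERRFI1, which blocks the EGF receptor, rose from 44.4, 45.4 and 47.1 to 102, 104 and 101 CPM (1.17, SE 0.05, edgeR adjusted p = 1.2e-11), the phosphatase DUSP7 by 0.54 and SPRY1 by 0.54. Among WNT targets (14 tested of 15 listed) 4 rose and 2 fell (median 0.05, -0.14 and -0.26, 2 up and 2 down, then 1 up and 2 down). The pseudoreceptor BAMBI rose from 9.15, 10.1 and 11.2 to 20.5, 20.6 and 20.3 CPM (1.01), while the WNT antagonists RNF43 (-1.05) and NOTUM (-1.0) fell. In the MYC network (12 tested) 3 rose and 1 fell (median 0.15, -0.04 and -0.15, 1 up and 1 down, then 1 up and none down), with MYCL at 0.46 and MAX at 0.30.

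Developmental transcription factors followed. Among SOX factors (12 tested of 19 listed) 6 rose and 1 fell (median 0.32, 0.13 and 0.00, 2 up and 1 down, then none up and 1 down), with SOX4 at 0.56, SOX7 at 0.77 and SOX12 at -0.44. Among KLF factors (14 tested of 18 listed) 10 rose and 2 fell (median 0.24, 0.05 and -0.07, 4 up and 2 down, then none up and 2 down), with KLF9 (0.71) and KLF11 (0.63) rising. Among HOX genes, which pattern the body axis (37 tested of 39 listed), 19 rose and none fell (median 0.19, 0.00 and -0.12, 6 up and 1 down, then 3 up and 1 down). HOXC9 rose from 12.3, 14.5 and 14.1 to 27.3, 26 and 27.7 CPM (0.98) and HOXA3 by 0.87, both overlapping antisense genes. In the ZNF family (423 tested of 509 listed) 151 rose and 81 fell (median 0.10, -0.09 and -0.22, 50 up and 106 down, then 9 up and 70 down), with falls of ZNF248 (-1.46) and ZNF260 (-1.04) and a rise of ZNF703 (1.11). Among ZBTB factors (39 tested of 41 listed) 19 rose and 9 fell (median 0.15, -0.04 and -0.16, 5 up and 10 down, then none up and 6 down), with ZBTB24 at 0.80, ZBTB2 at 0.78 and ZBTB17 at -0.86.

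Cadherins and protocadherins, which join cells, fell more often than they rose (40 tested of 98 listed), where 1 rose and 13 fell (median -0.12, -0.31 and -0.43, 1 up and 16 down, then 1 up and 14 down). PCDH10 was the member that rose (0.87), and DCHS1 (-0.85) and CELSR1 (-0.42) fell. Among large histone acetyl- and methyltransferases (15 tested) 12 rose and none fell (median 0.24, 0.05 and -0.06, 2 up and none down, then none called). The acetyltransferase KAT6A rose from 159, 142 and 141 to 196, 237 and 217 CPM (0.56), EP300 from 94, 94.7 and 84.3 to 115, 148 and 135 CPM (0.54) and CREBBP by 0.45. Among mRNAs described elsewhere as carrying m6A (19 tested), which share MYC, SOX4, EP300 and CREBBP with the lists above, 13 rose and 2 fell (median 0.39, 0.20 and 0.07, 4 up and 2 down, then 1 up and 1 down).

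The stress lists are read against the 15.5% of all genes that rose and the 15.4% that fell. The unfolded protein response, interferon and NF-kB lists had shares of rises near that background, as did the hypoxia and glycolysis list below. Of the integrated stress response (24 tested) 11 rose and none fell (median 0.19, 0.00 and -0.12, 3 up and 1 down, then none called). CEBPG, a partner of ATF4, rose from 30.6, 28 and 29 to 51.3, 50.2 and 53.2 CPM (0.82, SE 0.05, edgeR adjusted p = 5.25e-10). SLC7A11, the cystine carrier, rose from 12.7, 15.2 and 12.8 to 24.3, 21.8 and 21.1 CPM (0.72), more than the 0.21 without YTHDF2 siRNA (difference 0.51, edgeR adjusted p = 0.00815), and CHAC1 rose by 0.73. Of the unfolded protein response (18 tested) 3 rose and none fell (median 0.09, -0.10 and -0.22, none up and 6 down, then none called), with HERPUD1 at 0.37 and XBP1 at 0.27 (-0.0289 with spike-in scaling). Of heat shock chaperones (18 tested) 4 rose and none fell (median 0.04, -0.15 and -0.27, 2 up and 7 down, then none called), with HSPA1A at 0.78 and HSPA1B at 0.69, a near-identical pair whose reads may be split. Of p53 targets (23 tested) 9 rose and 4 fell (median 0.12, -0.07 and -0.19, 1 up and 5 down, then none up and 3 down), with MDM2 at 0.35 and BAX at -0.30. Of interferon response genes (23 tested of 30 listed) 3 rose and 1 fell (median -0.01, -0.19 and -0.33, none up and 2 down, then none called), with IFIT1 at 0.35 and IFIT5 at 0.24 (-0.065 with spike-in scaling). Of NF-kB response genes (20 tested of 22 listed) 3 rose and 4 fell (median 0.06, -0.13 and -0.25, 1 up and 4 down, then none up and 3 down), with TNFAIP3 at 0.63 and BIRC2 at -0.44.

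Of cholesterol synthesis genes (22 tested of 23 listed) 11 rose and 2 fell (median 0.12, -0.07 and -0.19, 3 up and 8 down, then none up and 1 down), with SQLE, which oxidises squalene, at 0.45, MSMO1 at 0.54 and INSIG1, which retains the SREBP escort, at 0.53. Of hypoxia and glycolysis genes (25 tested of 26 listed) 3 rose and 1 fell (median 0.01, -0.18 and -0.28, 2 up and 5 down, then none up and 1 down), with NDRG1 at 0.62, EGLN3 at 0.63 and PFKFB4 at -0.57. In the G1/S and replication list (32 tested) 2 rose and 6 fell (median -0.04, -0.23 and -0.34, none up and 19 down, then none up and 2 down), with GINS3 at 0.31 and the primase PRIM1 at -0.23. In the G2/M list (30 tested) 1 rose and 3 fell (median 0.01, -0.18 and -0.31, none up and 9 down, then none up and 2 down), with CDC25B at -0.23 and HMMR at -0.21. Of cyclin D, CDK and CDK inhibitor genes (11 tested) 4 rose and none fell (median 0.20, 0.00 and -0.12, 1 up and 3 down, then 1 up and none down). The CDK inhibitor CDKN2B rose from 22.3, 19.7 and 22.4 to 37.5, 42.1 and 37.5 CPM (0.86), and CDKN1B was at 0.28 (-0.0227 with spike-in scaling).

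Changes of cytosolic ribosomal protein genes were small. Of cytosolic ribosomal proteins (81 tested of 83 listed) 30 rose (37.0%) and none fell, against 15.5% and 15.4% of all genes. The medians were 0.20, 0.01 and -0.10, with none called with either scaling, and the TMM range was 0.06 to 0.29. The ribosomal protein scaling is computed from these same genes, so its median near 0 was fixed in advance and its lack of calls is no test. RPL22 rose from 44.7, 44.1 and 43.3 to 53.6, 49.3 and 52.7 CPM (0.24, and -0.0771 with spike-in scaling). Shares of rises near that of all genes were found for mitochondrial ribosomal proteins (14.3%) and nuclear oxidative phosphorylation genes (18.5%). Of mitochondrial ribosomal proteins (77 tested of 78 listed) 11 rose and 10 fell (median 0.04, -0.15 and -0.26, 3 up and 28 down, then none up and 6 down), with MRPL27 at -0.64, MRPS25 at -0.48 and MRPL44 at 0.56. Of nuclear oxidative phosphorylation genes (81 tested of 87 listed) 15 rose and 2 fell (median 0.13, -0.06 and -0.16, none up and 8 down, then none up and 1 down), the fallers being UQCR11 (-0.52) and NDUFV3 (-0.21). Of respiratory chain assembly factors (42 tested) 10 rose and 7 fell (median 0.03, -0.16 and -0.28, 5 up and 15 down, then 1 up and 5 down). Here SDHAF1 fell while UQCC4, which serves complex III, rose from 30.9, 29.1 and 33.4 to 57.1, 59.97 and 60.8 CPM (0.93). Of mitochondrial DNA genes (13 tested) 0 passed edgeR's test in either direction (0 at an unadjusted p under 0.05, and 0 called by DESeq2; median 0.02, -0.17 and -0.27, none called with either). Of translation factors (67 tested of 73 listed) 6 rose and 3 fell (median 0.04, -0.15 and -0.27, none up and 16 down, then none up and 3 down), with EIF2AK3 at 0.33 and EIF2B1 at -0.32. Of replication-dependent histones (26 tested of 65 listed) 1 fell and none rose (median -0.02, -0.21 and -0.34, none up and 3 down, then none up and 3 down), the faller being H2AC11 (-0.88). Beside the mitochondrial DNA genes, 18 lists had no member that fell in edgeR. In these lists 8 members in all were lower at an unadjusted p under 0.05 and DESeq2 called 0 lower, while edgeR called 28 members lower with ribosomal protein scaling and 1 with spike-in scaling.

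**Figure D3:**
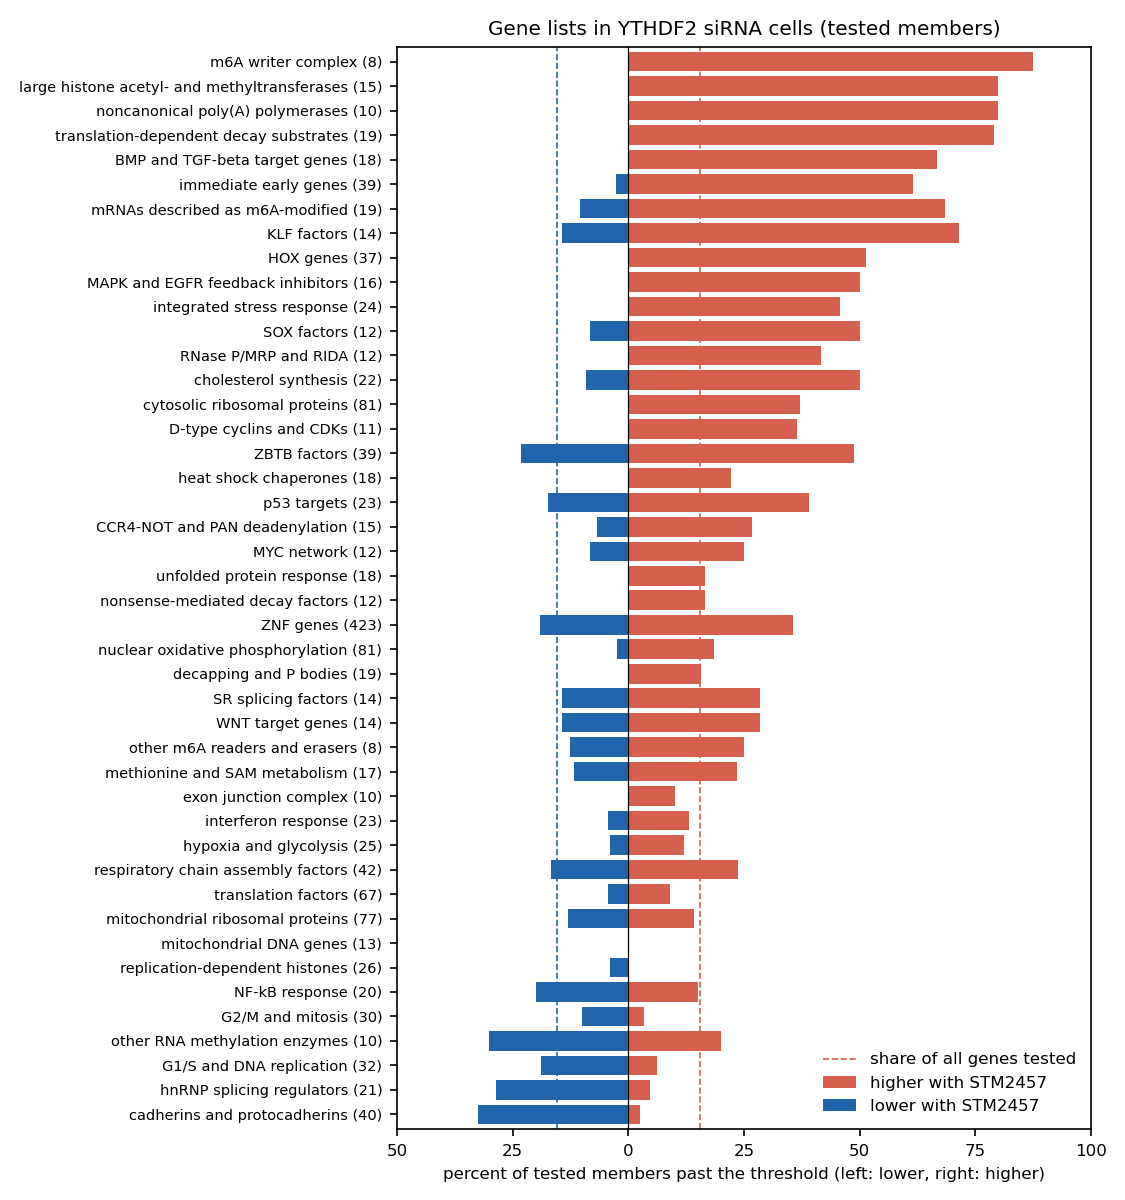
Percent of the tested members of each gene list that rose or fell with STM2457 in YTHDF2 siRNA cells. Marker lists and lists with fewer than 8 tested members (YTH readers, BTG and TOB adaptors) are not shown. The dashed lines are the shares over all genes tested, 15.5% and 15.4%, and in the writer complex 7 of 8 members rose while in cadherins and protocadherins 13 of 40 fell.

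The response was set beside that of the 6 libraries without YTHDF2 siRNA, which share no library with it. There 3814 genes rose (22.9%) and 3677 fell (22.1%). Of the genes that rose in the siRNA cells 83% also rose there, which is 56.1% of those that did, and of the genes that fell 69.4% also fell, which is 48.5% of those that did. Among 4026 genes called in both, 97.4% had the same direction. In the emetine experiment without emetine, where 26.0% of genes rose and 21.9% fell, the same direction was found for 97.1% of 3942 genes. With emetine (21.6% and 16.2%) it was 98.3% of 3517, and at 9 h (32.2% and 32.5%) 81.1% of 3822. Across the 16662 genes, which share each library's scaling and are not independent, the log2 changes with and without YTHDF2 siRNA had a Pearson r of 0.75.

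The difference between the responses with and without YTHDF2 siRNA passed edgeR's test for 1450 genes (8.7%). It was more positive with siRNA for 296 (1.78%) and more negative for 1154 (6.93%). The counts were 9 and 122 with ribosomal protein scaling. With spike-in scaling edgeR called 0 and 0. There 395 genes had an unadjusted p under 0.05, 217 of them more negative, against 3490 genes with TMM. The 395 are fewer than a threshold of 0.05 would pass among 16662 genes if none differed. A test that passes so few does not show that the responses were equal. The differences named below were 0.70 to 0.92 and -1.05 to -0.74 with this scaling. DESeq2 with its own size factors called 474 and 1175. Under spike-in scaling the median of the differences shifted by 0.06. Leaving out STM2457 replicate 3 of the cells without siRNA gave 715 and 1481, and leaving out DMSO replicate 1 of the siRNA cells 146 and 733. Of 2138 genes that rose in both, the difference was more negative for 469 and more positive for 9. Of 1587 that rose without siRNA and were not called with it, the difference passed the test for 358. Of 1783 that fell in both, it was more negative for 88 and more positive for 65.

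ALDH1B1, a mitochondrial aldehyde dehydrogenase, showed the largest gap in the negative direction. With YTHDF2 siRNA it was at 181, 169 and 176 CPM with DMSO and at 163, 160 and 166 CPM with STM2457, a log2 change of -0.11 that did not pass the test (edgeR adjusted p = 0.115). Without siRNA it rose from 102, 105 and 96.3 to 204, 206 and 194 CPM. The controls of the siRNA cells lay above the controls without siRNA, by 0.79 on the log2 scale, and the difference of the responses was -1.10 (SE 0.07, edgeR adjusted p = 9.47e-08). INTS5, a subunit of the Integrator complex, was at 76.3, 69.2 and 74.4 CPM with DMSO and at 79.5, 72.1 and 76.1 CPM with STM2457 with overlapping groups, and rose from 38.8, 37.6 and 36.1 to 79.8, 84.2 and 74.3 CPM without siRNA (difference -1.03). KBTBD7, an adaptor of CUL3 ubiquitin ligases, rose from 36.8, 35 and 33.7 to 45.6, 47.8 and 44.2 CPM with siRNA (0.38) and from 17.1, 17.7 and 17 to 45.4, 44.7 and 48.1 CPM without it (1.42), a difference of -1.03. In KBTBD7, too, the DMSO level was higher with siRNA, by 1.03, and the gene overlaps one without a symbol on the other strand. HOXD13, a limb-patterning factor, rose from 140, 133 and 145 to 255, 273 and 272 CPM with siRNA and from 114, 119 and 107 to 423, 401 and 484 CPM without it (difference -1.01).

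Coding windows of 3 of the genes whose rise was smaller or turned to a fall with YTHDF2 siRNA are shown because, like those above, they hold several m6A contexts away from junctions. The windows were taken and marked in the same way, with the motif in capitals.
ALDH1B1: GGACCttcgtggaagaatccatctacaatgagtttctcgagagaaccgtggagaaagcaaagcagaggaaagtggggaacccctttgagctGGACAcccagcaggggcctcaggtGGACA
IMP3: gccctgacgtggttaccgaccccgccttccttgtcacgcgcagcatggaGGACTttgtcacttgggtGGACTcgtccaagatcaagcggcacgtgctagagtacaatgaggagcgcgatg
KBTBD7: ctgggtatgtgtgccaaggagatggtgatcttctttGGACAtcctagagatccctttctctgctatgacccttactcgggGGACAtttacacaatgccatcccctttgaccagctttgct
The ALDH1B1 window (chr9:38396719-38396838, plus strand, exon 2) holds 3 motifs, the IMP3 window (chr15:75639634-75639753, minus strand, exon 2) 2 and the KBTBD7 window (chr13:41193127-41193246, minus strand, exon 1) 2. The largest falls hold motifs in their coding sequence too, with 12 in WDR6 and 5 in CHML, while SDHAF1 and ATXN7L3B hold 0 and 0. Among the risers ID3 and TRIM13 hold 1 and 1.

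ANKRD34A was at 7.03, 6.71 and 7.32 CPM with DMSO and at 7.04, 6.57 and 6.41 CPM with STM2457, with overlapping groups, and had a log2 change of 1.0 without siRNA (difference -1.07). EMILIN3, an extracellular matrix protein, fell from 68.4, 73 and 69.2 to 30.6, 25 and 27.3 CPM with siRNA (-1.34) and was at -0.34 without it (difference -1.0). EMILIN3 overlaps LPIN3 on the other strand. ZNF772 fell by 0.81 with siRNA and was at 0.21 without it (difference -1.02). The DMSO level with siRNA was above that without it by 1.02 for EMILIN3, 1.26 for ZNF772 and 0.19 for ANKRD34A (log2). With STM2457 the mean of EMILIN3 was 27.6 CPM with siRNA and 27.3 CPM without it. By family, the difference was more negative for 11 of 37 HOX genes, 79 of 423 ZNF genes, 8 of 39 ZBTB factors and 11 of 77 mitochondrial ribosomal proteins, against 6.93% of all genes. It was more positive for 0, 3, 0 and 0 of them. Among 81 cytosolic ribosomal proteins edgeR called 0 in either direction (2 at an unadjusted p under 0.05, and 0 called by DESeq2).

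**Figure D4:**
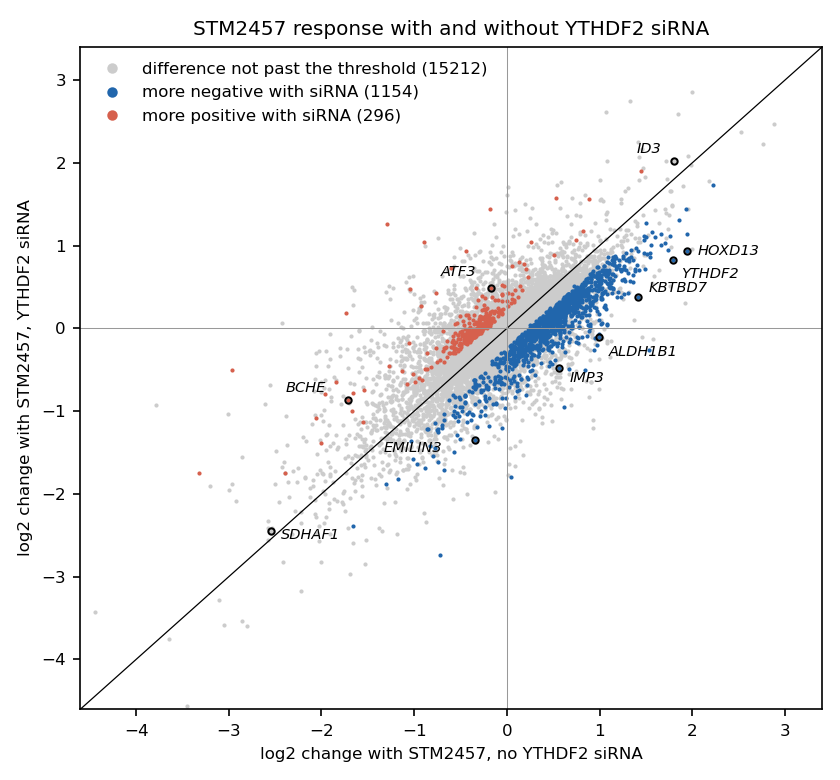
Log2 change with STM2457 without YTHDF2 siRNA (x axis) and with it (y axis) for the genes tested, with the line of equal change, where 3 genes lie outside the axes. Coloured points are the 1154 genes whose response was more negative and the 296 whose response was more positive with YTHDF2 siRNA, and they lie below and above the line.

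Opposite directions, past the threshold in both settings and in their difference, were found for 105 genes. Of these 89 rose without YTHDF2 siRNA and fell with it. IMP3, a protein of the U3 small nucleolar ribonucleoprotein that overlaps SNX33 on the other strand, fell from 123, 120 and 132 to 91.1, 85.5 and 92.7 CPM with siRNA (-0.48, edgeR adjusted p = 4.16e-06). Without siRNA it rose from 79.2, 84.1 and 76.9 to 116, 112 and 127 CPM (0.56), and the difference was -1.04 (SE 0.08, edgeR adjusted p = 6.57e-07). TMEM177, a factor of cytochrome c oxidase assembly, fell from 44.6, 45 and 44.2 to 34.1, 33.1 and 35.1 CPM with siRNA and rose from 31, 31 and 30.1 to 45.1, 46.7 and 40.4 CPM without it. TAF11, a subunit of the general transcription factor TFIID, was at -0.41 with siRNA and 0.47 without it. C2orf69 (-0.28 and 0.63), KLHL9, a CUL3 adaptor (-0.19 and 0.59), and MSANTD4 (-0.17 and 0.67) showed the same pair of signs. The rise of TAF11 was not seen in the emetine experiment without emetine, also without siRNA (-0.08, edgeR adjusted p = 0.0951). At 9 h TAF11 was at 0.09. In that emetine experiment IMP3 was at 0.51, TMEM177 at 0.49, C2orf69 at 0.62, KLHL9 at 0.47 and MSANTD4 at 0.43. The DMSO libraries with siRNA are the controls of the falls and also differed from the DMSO libraries without it, by 0.64 for IMP3, 0.54 for TMEM177 and 0.73 for TAF11. C2orf69 shares exonic bases with MAIP1 on the same strand.

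Some genes with a more positive response fell less with YTHDF2 siRNA. BCHE, the plasma cholinesterase, fell from 11.2, 12.6 and 11.2 to 7.2, 5.9 and 6.01 CPM with siRNA (-0.87) and from 17.1, 15.8 and 18.5 to 4.98, 5.36 and 5.36 CPM without it (-1.71), a difference of 0.84 (SE 0.13, edgeR adjusted p = 0.00033). PCDHGC3 (-0.78 and -1.66) and ARMH4 (-0.99 and -1.67) fell in both, and PCDHGC3 shares exons with other gamma protocadherins. Others rose with siRNA and did not pass the test in the 6 libraries without it. ATF3, a stress-induced transcription factor, rose from 34.8, 34.5 and 37.1 to 49.97, 51 and 47.9 CPM with siRNA (0.48) and went from 40.1, 45.4 and 38.4 to 34.7, 32.2 and 43.1 CPM without it (-0.17, edgeR adjusted p = 0.111). ANTXR2, an anthrax toxin receptor, was at 0.76 and 0.06, ARC at 1.05 and 0.26, and CCNJL at 0.80 and 0.13. By contrast, EGR1, an immediate early transcription factor, passed in both settings: it rose by 0.34 with siRNA and fell by 0.31 without it (edgeR adjusted p = 0.0141). Log2 differences of DMSO levels, with against without siRNA, were -1.40 (ANTXR2), -0.62 (ARC), -1.39 (CCNJL), -0.22 (ATF3) and 0.56 (EGR1). With siRNA and STM2457, ANTXR2 and CCNJL had means of 6.74 and 4.24 CPM, below the 10.5 and 6.41 CPM in DMSO without siRNA. In the emetine experiment without emetine, also without siRNA, ARC (0.84), CCNJL (0.56) and ATF3 (0.19) rose past the threshold. ANTXR2 (-0.01) and EGR1 (0.21) did not pass there. At 9 h without siRNA ARC was at 1.11, CCNJL at 0.68, ATF3 at 0.15, ANTXR2 at 0.17 and EGR1 at 0.14.

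The size of the response was also read on genes picked in other libraries, all of them without YTHDF2 siRNA. This choice favours genes that respond without the siRNA, and leaves out those that respond only with it. In the 9 h experiment and in the emetine experiment without emetine, 3075 genes tested here were higher in both. Their median log2 change was 0.24 with YTHDF2 siRNA and 0.42 without it, 0.05 and 0.16 with ribosomal protein scaling, and -0.07 and 0.06 with spike-in scaling. With siRNA 1790 of them rose and 92 fell, and without it 2483 and 5. The difference was more negative for 830 and more positive for 23. The 2475 genes lower in both of those experiments had medians of -0.14 with siRNA and -0.25 without it, -0.33 and -0.51 with ribosomal protein scaling, and -0.45 and -0.62 with spike-in scaling. Of these 1056 fell and 11 rose with siRNA, and the difference was more positive for 153 and more negative for 56.

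Exon structure was compared because m6A is kept from sequence near junctions. For 13410 protein coding genes, the share of the coding sequence that lies over 100 bases from every junction was computed in the longest coding transcript, a measure added after seeing the data. Its median was 44% in genes that rose in the siRNA cells, 20.4% in genes that fell and 12.3% in genes not called. In 5 groups of 2682 genes from the lowest to the highest share, the median log2 changes were -0.01, -0.02, 0.00, 0.05 and 0.09 with YTHDF2 siRNA and -0.07, -0.08, -0.03, 0.07 and 0.25 without it. With siRNA and ribosomal protein scaling they were -0.19, -0.21, -0.19, -0.14 and -0.10, and with spike-in scaling -0.31, -0.33, -0.31, -0.26 and -0.22. In the group with the highest share 35.1% of genes rose and 18.8% fell with siRNA, against 7.01% and 12.2% in the lowest. With TMM the difference between the responses was more negative for 626 genes of the highest group and more positive for 23. In the lowest group it was more negative for 26 and more positive for 67, against 6.93% and 1.78% of all genes. Over all genes 1068 were more negative with RLE factors and 1175 with DESeq2, but only 122 with ribosomal protein scaling and 0 with spike-in scaling. The counts by group were made with TMM only. Within each of 4 groups of genes by expression, also added after seeing the data, the genes with the highest share had the higher median, for example 0.11 against -0.06 with siRNA in the second.

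**Figure D5:**
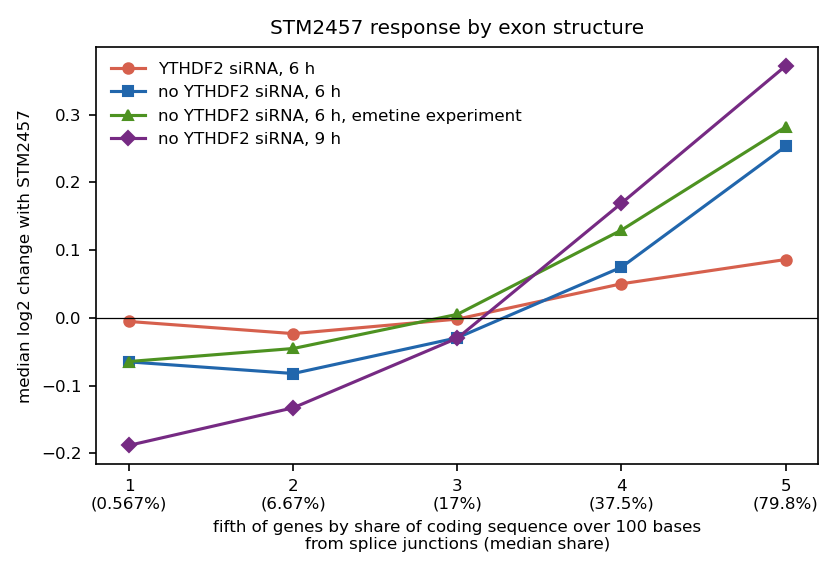
Median log2 change with STM2457 (y axis) in 5 groups of protein coding genes ordered by the share of coding sequence over 100 bases from splice junctions (x axis), with 1 line for each experiment. Values are with TMM, and in the group with the highest share the YTHDF2 siRNA cells are at 0.09 and the cells without it at 0.25.

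Genes without introns showed the gap as well. The 336 genes whose longest coding transcript has 1 exon had a median log2 change of -0.01 with YTHDF2 siRNA and 0.19 without it, and 84 rose and 96 fell with siRNA, against 15.5% and 15.4% of all genes. The difference was more negative for 97 of them and more positive for 1, against 6.93% and 1.78% of all genes. KBTBD7 and KLHL9 are of this kind, as are SDHAF1, ATXN7L3B, TSPYL4 and SMIM10 among the largest falls. The median number of exons was 6 in genes that rose, 9 in genes that fell and 10 in genes not called, and the median GC content of the coding sequence 51.6%, 56.8% and 52.3%. The density of GGACT in coding sequence was close in the 3 classes, with medians of 1.03, 1.02 and 0.978 per kilobase. In the 3′ UTR the medians were 0.617 in genes that rose, 0.792 in genes that fell and 0.501 in genes not called. The median number of GGACT in coding sequence over 100 bases from every junction was 1, 0 and 0.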

How the data were processed

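RNA was selected by poly(A) and sequenced from a strand-specific kit, per the labels' protocols. The authors deposited a raw count of reads for each Ensembl gene, which was not normalised. STAR 2.7.3a, featureCounts, Subread 2.0.0, SAMtools 1.9, Trimmomatic, cutadapt (1.18 and 4.0) and FastQC 0.11.8 are named in the submitters' processing notes, with the build GRCh38.p12. Which annotation release and strand setting were used is not given in the sources used here. Values of overlapping genes are uncertain for that reason. Gene types, positions and transcripts came from GENCODE 29.

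Counts of the 12 libraries of the knockdown experiment were fitted in R 4.3.3 with edgeR 4.0.16 (TMM, filterByExpr, quasi-likelihood F tests, Benjamini-Hochberg adjustment over all 16662 genes tested, threshold 0.05), with 1 mean per group and the 92 ERCC RNAs set apart. The 9 h and emetine experiments were fitted separately. Contrasts were STM2457 against DMSO with and without YTHDF2 siRNA and their difference, YTHDF2 siRNA in DMSO, and STM2457 in the other experiments. The alternatives were DESeq2 1.42.0, RLE factors, scaling to 83 ribosomal protein genes or to the ERCC RNAs, other filters, fewer libraries and a replicate block. The scripts were tested on simulated data.

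The text names METTL3 and YTHDF2, the 12 largest rises and 12 largest falls among called coding genes whose groups do not overlap and whose mean log2 CPM is 2 or more, and 4 non-coding genes per direction by the same limits. It also names up to 4 members per list by smallest p, of which some are not reported here, 8 differences per direction and 6 opposite changes. The comparison, the 51 gene lists and their members were chosen with earlier results of these data known. Lists are described without a test of the list, and some share genes.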

Additional observations from a re-analysis of the deposited data

Results flagged for a closer look

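By a test of the difference itself (edgeR, adjusted over all genes), the response to STM2457 differed between cells with and without YTHDF2 siRNA for 1450 genes. Each value that follows is the log2 change with siRNA minus that without. The response was more positive with siRNA for PCDHGC3 (0.88), BCHE (0.84), ARC (0.79), ANTXR2 (0.70), ARMH4 (0.67), CCNJL (0.66), ATF3 (0.65) and EGR1 (0.65). It was more negative for ALDH1B1 (-1.10), ANKRD34A (-1.07), IMP3 (-1.04), KBTBD7 (-1.03), INTS5 (-1.03), ZNF772 (-1.02), HOXD13 (-1.01) and EMILIN3 (-1.0). Genes that rose in the 6 libraries without siRNA and fell with it also included C2orf69 (-0.91), KLHL9 (-0.79), TMEM177 (-0.91), TAF11 (-0.88) and MSANTD4 (-0.83). With spike-in scaling edgeR called none of these differences, with values of 0.70 to 0.92 for the more positive and -1.05 to -0.74 for the more negative.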

How the results depend on the processing

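The count of genes changed in YTHDF2 siRNA cells (5146) stayed within 1.5 times with RLE factors, DESeq2, ribosomal protein scaling, both other filters and the 6 libraries alone, and came to 2519 with spike-in scaling. Rises came to 703 with ribosomal protein and 138 with spike-in scaling, and falls to 4241 with ribosomal protein scaling. Leaving out 1 library gave 4146 to 4510 genes, 2093 to 2240 higher and 2053 to 2270 lower. In none of the alternatives did a called gene pass the threshold in the other direction. Without YTHDF2 siRNA, rises and falls came to 1245 and 7359 with ribosomal protein scaling, and rises to 398 with spike-in scaling.

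The difference between the responses came to 131 genes (9 more positive, 122 more negative) with ribosomal protein scaling in edgeR. With spike-in scaling it came to 0 (0 and 0). There 395 genes had an unadjusted p under 0.05, fewer than that threshold would pass if none differed, so the lack of calls does not show equal responses. DESeq2 gave 474 more positive. Leaving out 1 library gave 879 to 2196 genes, 146 to 715 more positive and 733 to 1481 more negative. The total moved by over 1.5 times without DMSO replicate 1 (966) or STM2457 replicate 3 (2196) of the cells without siRNA, and without DMSO replicate 1 (879) or STM2457 replicate 3 (928) of the siRNA cells. The more positive count did so also without DMSO replicate 3 (176) or STM2457 replicate 2 (195) of the siRNA cells. The cause was not tested.

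With spike-in scaling the log2 change turned to -0.0194 for ALKBH5, -0.126 for CNOT4, -0.0996 for LSM7, -0.0363 for SRSF4, -0.0289 for XBP1, -0.065 for IFIT5, -0.0227 for CDKN1B and -0.0771 for RPL22, and with ribosomal protein scaling to -0.0051 for CNOT4, none past the threshold. Deviations of same-numbered siRNA libraries from their group means correlated at -0.317, -0.329 and 0.13, and not every library correlated best with its own number. Same-numbered STM2457 libraries with and without siRNA correlated at 0.541, 0.046 and 0.247. Deviations from the mean of so few libraries depend on each other, so these correlations cannot show whether the numbers pair the samples. With the replicate block 2745 genes rose and 2634 fell, and 331 differences were more positive and 1196 more negative. Of 2661 coding genes under a mean log2 CPM of 2, 140 rose and 279 fell, against 2264 and 1627 of the other 10795.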
